A study of Mus musculus with 12 samples.

Results

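The genes described here are those of mouse chromosome 19, measured in F9 teratocarcinoma cells that carry the gene of the retinoic acid receptor alpha (WT) or are labelled as its knockout (RARaKO). Members were the probe sets with a single annotated gene placed on chromosome 19 by the GRCm38 RefSeq table, without the 7 genes Cyp26a1, Dusp5, Hhex, Scd1, Scd2, Fads1 and Fads2. They came to 1073 probe sets of 553 genes, out of 37600 probe sets measured, or out of 16509 genes with a probe set of their own. The comparison set was the 28396 probe sets of 15376 genes on the other 18 autosomes. The chromosome was picked because its genes read slightly lower in RARaKO than in WT cells, so every RARaKO minus WT value below describes that choice and carries no test.

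Expression was measured on 12 Affymetrix Mouse 430 2.0 arrays, 3 in each of 4 groups: WT cells given ethanol vehicle (EtOH), RARaKO cells given EtOH, WT cells given all-trans retinoic acid (atRA) and RARaKO cells given atRA. Cells were plated 16 h before drug addition. All 4 groups, controls included, received the translation inhibitor cycloheximide at 1 µg/ml for 30 min and then 1 µM atRA or 0.1% EtOH for 7.5 h. The arrays are numbered as sets 2, 3 and 4 in each group. No label says that the sets came from separate cultures, so the spread between arrays of a group may be technical. The labels do not say how the RARaKO line was made or from how many clones. In whole-culture RNA, fewer cells of a type and less RNA per cell cannot be told apart.

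Chromosome 19 is the smallest mouse autosome and is packed with genes at the end where the measured order begins. It carries housekeeping genes of splicing, translation, DNA replication, vesicle traffic and mitochondria beside clusters that are used in few tissues, such as the Ms4a membrane proteins, the Slc22a transporters and the Cyp2c cytochromes. The retinoic acid receptor alpha, whose own gene lies on another chromosome, pairs with a retinoid X receptor on DNA elements made of repeated half-sites and switches nearby genes on when atRA is bound. F9 cells turn towards primitive endoderm when given atRA. Cycloheximide blocks protein synthesis, so that responses to atRA are read before new regulators have been made.

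The starts of the genes that departed most from the rest of the chromosome are shown first, because the strongest departures lay side by side and 1 boundary fell between a pair of genes that share a start region. Each sequence is from RefSeq (GRCm38.p6) and holds the 250 bases before the annotated start, written 5′ to 3′ along the gene. Capitals mark matches, on either strand, to the GC box GGGCGG, the CCAAT box CCAAT and the ETS motif CCGGAAG.
Got1, minus strand, chr19:43524606-43524855: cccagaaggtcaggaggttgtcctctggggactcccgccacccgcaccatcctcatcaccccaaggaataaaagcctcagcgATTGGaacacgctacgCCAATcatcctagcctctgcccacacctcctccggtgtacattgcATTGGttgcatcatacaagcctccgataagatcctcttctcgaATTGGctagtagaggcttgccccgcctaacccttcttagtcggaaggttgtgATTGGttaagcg
Slc25a28, minus strand, chr19:43674882-43675131: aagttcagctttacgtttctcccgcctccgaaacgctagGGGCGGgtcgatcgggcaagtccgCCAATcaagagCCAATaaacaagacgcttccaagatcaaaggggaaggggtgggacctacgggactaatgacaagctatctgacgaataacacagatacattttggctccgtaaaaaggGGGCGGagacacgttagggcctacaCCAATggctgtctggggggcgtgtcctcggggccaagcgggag
Entpd7, plus strand, chr19:43689439-43689688: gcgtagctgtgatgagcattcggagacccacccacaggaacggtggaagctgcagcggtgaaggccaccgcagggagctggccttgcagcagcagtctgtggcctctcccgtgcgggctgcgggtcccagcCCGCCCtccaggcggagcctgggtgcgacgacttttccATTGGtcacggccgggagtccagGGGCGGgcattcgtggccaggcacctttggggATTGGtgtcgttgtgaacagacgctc
Cstf2t, plus strand, chr19:31082591-31082840: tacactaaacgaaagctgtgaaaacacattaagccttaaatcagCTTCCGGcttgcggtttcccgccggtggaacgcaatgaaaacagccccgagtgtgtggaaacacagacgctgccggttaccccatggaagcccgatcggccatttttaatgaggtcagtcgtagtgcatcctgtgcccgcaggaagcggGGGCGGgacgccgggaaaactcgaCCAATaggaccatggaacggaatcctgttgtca
The Got1 window held 5 CCAAT matches and no GC box. The Slc25a28 window held 3 CCAAT matches and 2 GC boxes, the Entpd7 window 2 of each, and the Cstf2t window 1 CCAAT match, 1 GC box and 1 ETS match. Of the 32851 windows of this length in the table, 33.8% held CCAAT, 32.7% GGGCGG and 6.91% CCGGAAG, and 0.213% held CCAAT 5 or more times. The TATA letters TATAAA and an exact form of the receptor's direct repeat, 2 half-sites AGGTCA with any 5 bases between them, had no match in these 4 windows. Of all windows, 12.4% and 0.00913% held them. The motifs are described only as letters.

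Cox15 and Cutc are transcribed away from each other, Cox15 on the minus and Cutc on the plus strand, and their annotated starts are parted by 22 bases, shown on the plus strand.
Between Cox15 and Cutc, chr19:43753001-43753022: gtcgtgcgcgccccctcgcgct
Those bases belong to the region before the start of both genes, and the array values of the pair, given further on, went opposite ways.

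The whole chromosome read slightly lower in RARaKO cells, in both treatments. In EtOH the median difference of its probe sets, RARaKO minus WT on the log2 scale, was -0.066, against -0.014 for the other autosomes. That left -0.053 for chromosome 19 itself, a level 3.60% lower. In atRA the median was -0.055 against -0.0027, leaving -0.052, or 3.55%. In EtOH 745 of the 1073 probe sets (69.4%) were lower in RARaKO cells, compared with 54.6% of those of the other autosomes. In atRA 678 (63.2%) were lower, compared with 50.7%. These values are relative: each array had been normalized as a whole, so a level shared by all chromosomes is not seen.

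The whole distribution was shifted. At the 7 percentiles read, from the 5th to the 95th, the chromosome 19 values differed from those of the other autosomes by -0.071 to -0.050 in EtOH and by -0.074 to -0.043 in atRA. The interquartile range was 0.168 on chromosome 19 and 0.163 elsewhere in EtOH, and 0.203 and 0.179 in atRA. A difference beyond -0.1 was seen for 39.0% of the members in EtOH, against 23.1% of the comparison set, and for 38.1% against 23.2% in atRA. Large differences were few. Only 6 members in EtOH and 8 in atRA lay below -0.5, and 18 and 20 lay above 0.5. The median standard error of a single probe set's difference was 0.087, larger than the shift, so that the shift is seen in the sum of many genes and not in a typical single one.

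Among the 19 autosomes, chromosome 19 had the lowest median in both treatments. The others ran from -0.031 (chromosome 14) to 0.015 (chromosome 4) in EtOH and from -0.013 to 0.027 (chromosome 4) in atRA. In the share of probe sets below 0 the others ran from 46.0% to 59.6% in EtOH and from 42.7% to 55.1% in atRA. Chromosomes 19 and 4 were the only autosomes on which all 6 RARaKO arrays parted from all 6 WT arrays, chromosome 19 downwards and chromosome 4 upwards.

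**Figure D1:**
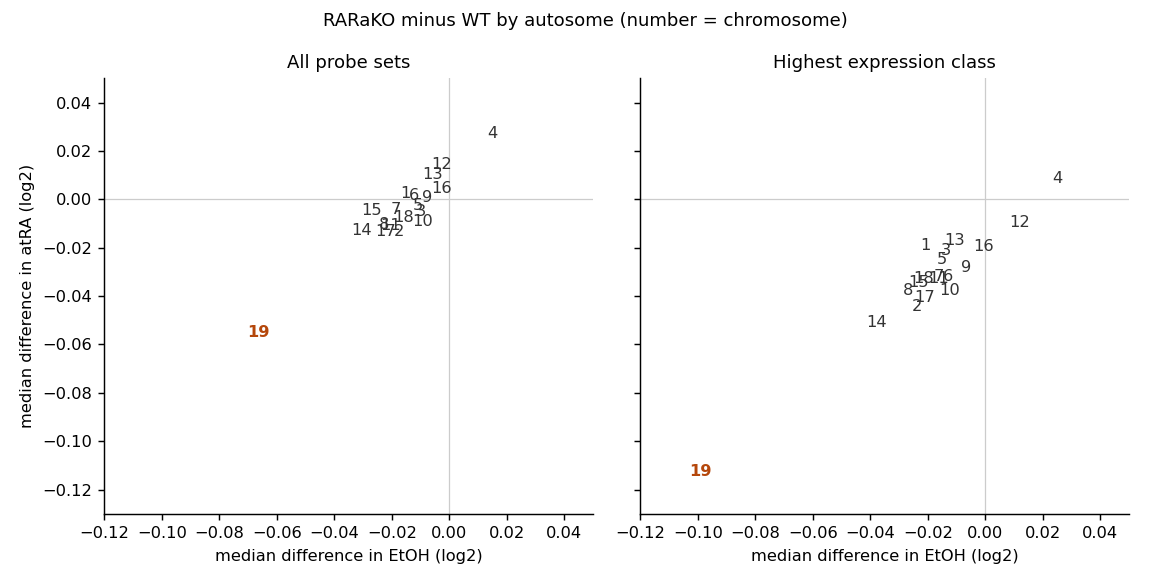
Median RARaKO minus WT difference (log2) of each autosome in EtOH (x axis) and atRA (y axis), printed as the chromosome number, over all probe sets (left) and over those of the highest expression class (right). Chromosome 19, in bold, lies below and to the left of the other 18 at -0.066 and -0.055 on the left and at -0.099 and -0.11 on the right.

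Each array showed the same thing. The median level of chromosome 19 minus that of the other autosomes was 0.024, 0.011 and 0.035 on the WT EtOH arrays of sets 2, 3 and 4, and -0.028, -0.016 and -0.021 on the RARaKO EtOH arrays. It was 0.0083, 0.030 and 0.021 on the WT atRA arrays and -0.014, -0.025 and -0.019 on the RARaKO atRA arrays. All 6 WT arrays were above 0 and all 6 RARaKO arrays below, with no overlap in either treatment. As group means this gave 0.024 ± 0.012 (SD, n = 3) and -0.022 ± 0.0062 in EtOH, and 0.020 ± 0.011 and -0.019 ± 0.0054 in atRA. Each RARaKO array was also set against each WT array of its treatment. The chromosome 19 difference was between -0.071 and -0.040 in EtOH and between -0.074 and -0.036 in atRA. It was below 0 in 9 of 9 pairings each time, but the pairings reuse the same arrays and are not independent.

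**Figure D2:**
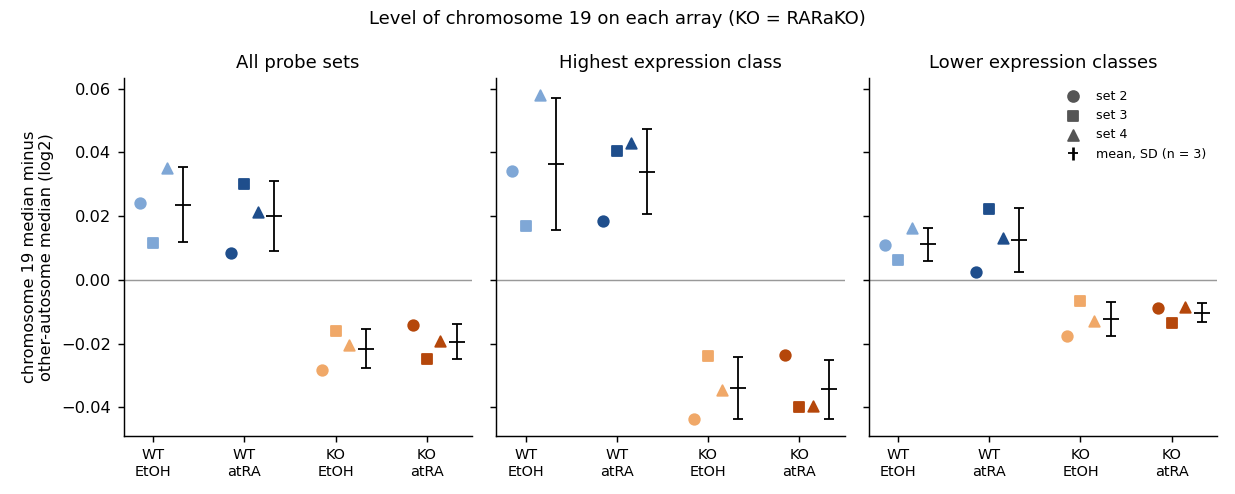
Median level of chromosome 19 minus the median of the other autosomes (log2) on each of the 12 arrays, by group, for all probe sets and for the highest and the lower expression classes; marker shapes show sets 2, 3 and 4, and the bars show the mean and SD of 3 arrays. WT arrays lie above 0 and RARaKO arrays below 0 in each panel.

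A measure of RNA condition moved with genotype beside this result. The mean of 4 control transcripts' 5′ minus 3′ values, on the centred log2 scale, was -0.12 to -0.084 on the WT EtOH arrays and -0.023 to 0.13 on the RARaKO EtOH arrays, without overlap. In atRA it was -0.025 to 0.018 and 0.0012 to 0.090, with overlap. Its part in the result was not tested. The 9 F9 stem cell markers measured, among them Pou5f1, Sox2 and Nanog, were all in the highest expression class, and none of the marker genes of F9 cells, endoderm, fibroblasts or blood was called different between the genotypes. Of the other lists' measured markers, 7 of 9 for endoderm, 2 of 5 for fibroblasts and 0 of 2 for blood were in that class. The mean centred level of the F9 markers was -0.0052 to 0.083 and -0.060 to 0.16 on the WT and RARaKO EtOH arrays and -0.061 to 0.039 and -0.12 to 0.033 in atRA. That of the 2 blood markers was 0.044 to 0.20 and -0.18 to 0.050 in EtOH and -0.062 to 0.093 and -0.16 to -0.058 in atRA, with overlap each time. On the 1 Rara probe set, the mean level was higher on the arrays labelled RARaKO, by 0.90 in EtOH and 0.36 in atRA. Where that probe set lies relative to the altered part of the gene is not given in the sources used here, so it does not check the labels, and every direction rests on them.

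The shift was larger for genes that were expressed more. The deposited values are centred on each probe set's median and hold no level, but the step of their last digits still tells whether the median had been at least 8 on the log2 scale, and 441 members (41.1%, against 41.7% elsewhere) fell in that highest class. Their median was -0.099 in EtOH and -0.11 in atRA, which is -0.085 and -0.084 relative to the same class on other autosomes. In EtOH 76.9% of them were lower and in atRA 78.7%, against 54.9% and 59.4%. The 627 members between 4 and 8 gave -0.029 and -0.023 relative to their class, and in atRA only 52.5% of them were lower, against 44.6%. On the arrays the highest class gave 0.017 to 0.058 for the WT EtOH group and -0.044 to -0.024 for the RARaKO EtOH group, and 0.019 to 0.043 and -0.040 to -0.024 in atRA.

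The members were also split by the base composition of the gene starts. A promoter sequence was found for 466 member genes (84.3%), with a median of 59% G and C, against 59.5% elsewhere. In EtOH the members' shift was -0.039 in the lowest tercile by G and C, -0.062 in the middle and -0.063 in the highest. In atRA it was -0.037, -0.067 and -0.044. Within the highest expression class, the lowest tercile gave -0.081 and -0.069 and the highest tercile -0.085 and -0.084. Within the class between 4 and 8, the lowest tercile gave -0.011 and -0.015 and the highest tercile -0.044 and -0.024. Of these 466 genes, 56.0% had at least 1 window with the GC box, 44.4% with CCAAT, 14.2% with the ETS motif and 9.23% with TATAAA. Among genes of the other autosomes the shares were 56.8%, 39.1%, 12.7% and 9.35%. These are shares of genes and not comparable with the shares of single windows given earlier. None of the 466 held the direct repeat in its exact letters. Only 0.00818% of the genes on the other autosomes held it, too few for its absence to be read. Half-sites with other letters were not searched.

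Along the chromosome the lowering was broad but not flat. Gene order was cut into 6 stretches of 10 megabases, named here by their first and last measured gene. The first, from Ighmbp2 to Best1, held 193 of the 553 genes and had medians of -0.091 in EtOH and -0.093 in atRA. The second, Rab3il1 to Rorb, gave -0.062 and -0.039, and the third, Anxa1 to Il33, -0.038 and -0.026. The fourth, Trpd52l3 to Cyp2c68, was nearest to the other autosomes with -0.031 and -0.0055. The fifth, Cyp2c54 to Sorcs3, gave -0.054 and -0.031, and the sixth, Sorcs1 to Csf2ra, -0.051 and -0.045. In every stretch the median was below that of the other autosomes in both treatments. All RARaKO arrays lay below all WT arrays in the first, the second, the fifth and the sixth stretch, and overlapped with them in the third and the fourth. Without the first stretch the rest of the chromosome stood at -0.036 in EtOH and -0.028 in atRA relative to the other autosomes.

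The stretches also differed in expression class. In the first stretch 48.7% of probe sets were in the highest class, and in the others 31.5% to 38.7%. Within that class and relative to it on other autosomes, the first stretch gave -0.095 in EtOH and -0.10 in atRA. The remaining stretches gave -0.082 to -0.055 in EtOH and -0.081 to -0.018 in atRA, all below 0. In the lower classes the first stretch stood apart, with -0.068 and -0.056, while the others gave -0.027 to -0.0034 in EtOH and -0.026 to 0.0040 in atRA. Among 204 stretches of 10 megabases on the other autosomes with at least 50 probe sets, the lowest median was -0.064 in each treatment, so 0 of them reached the first stretch of chromosome 19. In contrast, 40 in EtOH and 102 in atRA lay below the fourth stretch.

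**Figure D3:**
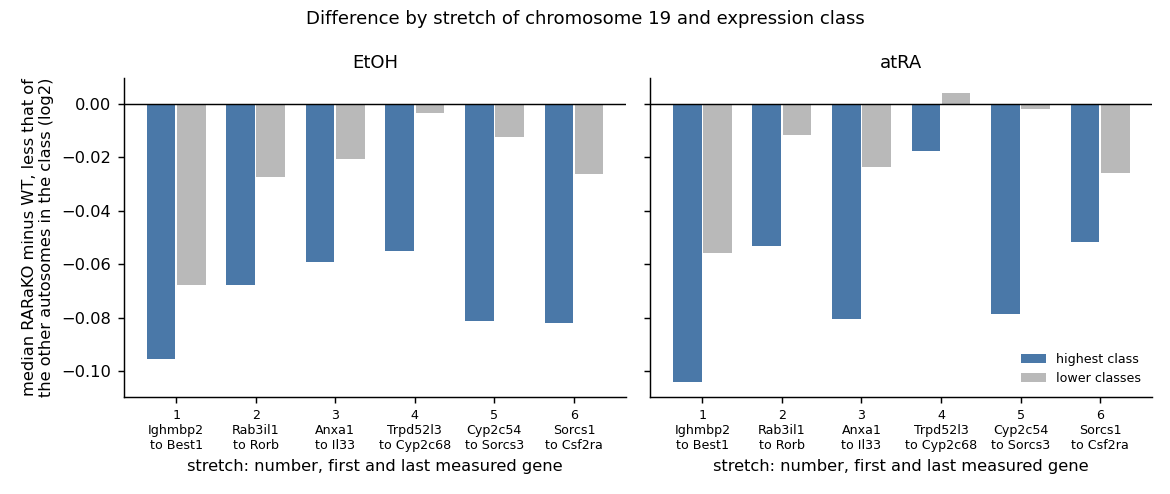
Median RARaKO minus WT difference (log2) in the 6 stretches of chromosome 19, less the median of the other autosomes in the same expression class, in EtOH (left) and atRA (right); bars start at 0 and show the highest and the lower expression classes. The highest class is below 0 in all 6 stretches, while the lower classes are near 0 outside the first.

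A running median over 41 neighbouring genes said the same. In EtOH it ran from -0.12, centred on Incenp, to -0.0092, centred on Ankrd2, and lay below the median gene of the other autosomes (-0.014) in 511 of 513 windows. In atRA it ran from -0.14, centred on Sf3b2, to 0.015, centred on Cwf19l1, and lay below -0.0017 in 474 of 513. The longest unbroken series of neighbours all below the other autosomes were 20 genes from Capn1 to Atg2a, 16 from Trmt112 to Macrod1 and 14 from Ahnak to Ppp1r32, the last of which crosses from the first stretch into the second. The longest series above was 7 genes, from Kif20b to Ppp1r3c. Over 552 pairs of adjacent genes the differences correlated with r = 0.18 in EtOH and 0.17 in atRA, a description in which the pairs share all arrays.

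**Figure D4:**
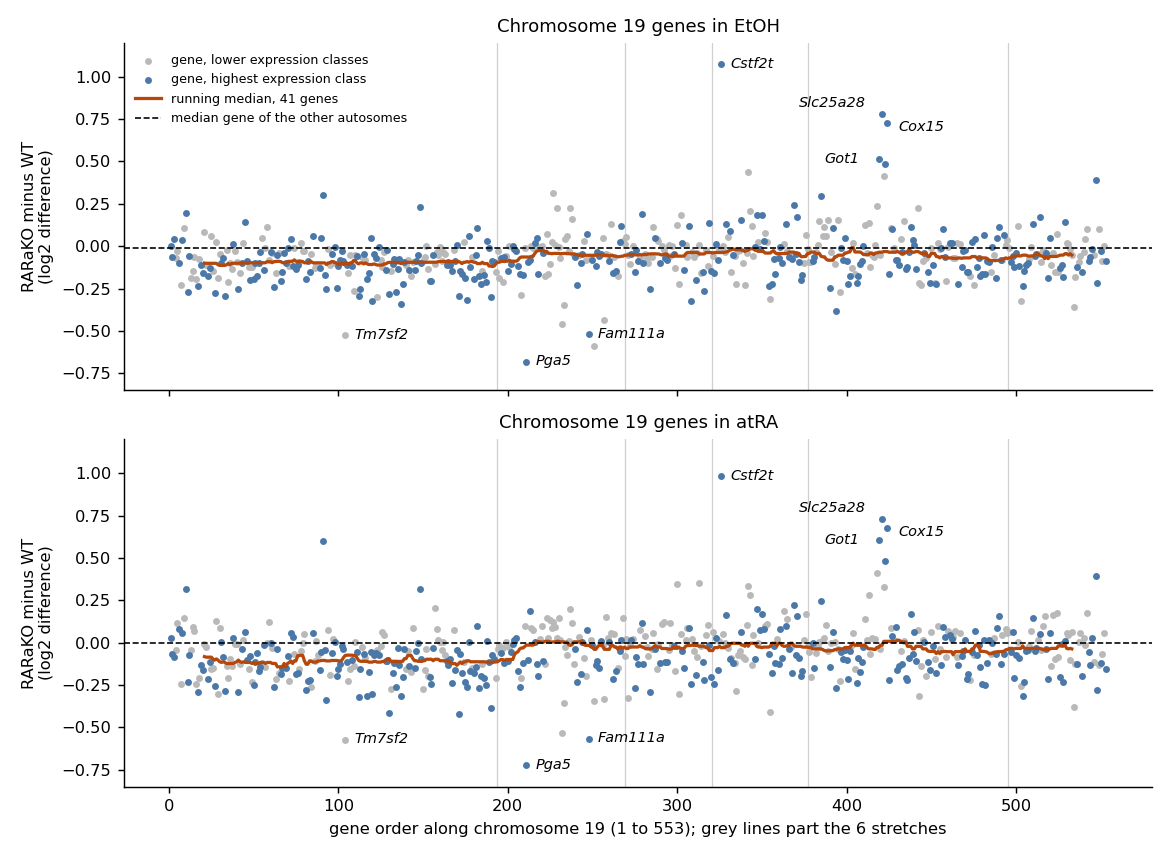
RARaKO minus WT difference (log2) of each of the 553 genes in chromosome order, in EtOH (top) and atRA (bottom), with the running median of 41 genes and the median gene of the other autosomes (dashed); blue points are genes of the highest expression class. The running median keeps below the dashed line over most of the chromosome, deepest over the first stretch, and a group of points around Got1, Slc25a28 and Cox15 stands above it.

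Per gene, with a gene's probe sets averaged, 319 of the 553 genes (57.7%) were lower in RARaKO cells in both treatments and 100 (18.1%) higher in both, against 38.3% and 32.1% on the other autosomes. EtOH and atRA share no array here, and the differences of the genes correlated between them with r = 0.83 (Spearman 0.74), compared with 0.77 for the genes of the other autosomes. These are correlations across genes, which are not independent replicates. The arrays of the genotypes did not overlap in both treatments for 84 genes that were lower and 12 that were higher. No such count was made over the genes of the other autosomes, so shares are given only for single probe sets. Of single probe sets, 268 (24.98%) were lower without overlap in EtOH, where the share over all probe sets was 12.7%, and 224 (20.9%) in atRA, where it was 10.5%. In the upward direction the counts were 61 (5.69%) against 9.69% and 54 (5.03%) against 9.9%. Without overlap in both treatments, 152 (14.2%) were lower against 5.24% and 23 (2.14%) higher against 4.1%. Since these contrasts chose the chromosome, nothing further is read from the counts.

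Single probe sets past an adjusted p of 0.05 (limma, Benjamini-Hochberg over all 37600) are given on the same footing. In EtOH 13 members were called higher and 24 lower, 37 in all or 3.45% of the members, against 3.01% of the whole array (1.84% up, 1.16% down). In atRA 13 were called higher and 35 lower, 4.47% of the members, against 3.12% (1.61% up, 1.51% down). Of these, 11 were called higher in both treatments and 14 lower in both, and 0 in opposite directions. Calls in both treatments were not counted over the whole array, so nothing is read from these 3 counts. The members called in either treatment belonged to 49 genes. Most of the lowered members thus stayed below the threshold one by one.

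The strongest exceptions were genes that read higher. Cstf2t, a paralogue of a subunit of the factor that cleaves the 3′ end of messenger RNA, had the highest gene value on the chromosome. Its level, centred over the 12 arrays, was -0.40, -0.55 and -0.44 on the WT EtOH arrays and 0.69, 0.64 and 0.49 on the RARaKO EtOH arrays. In atRA it was -0.42, -0.58 and -0.42 in WT and 0.50, 0.63 and 0.40 in RARaKO cells. The genotypes were far apart in both treatments, by 1.07 and 0.98 (SE 0.082 each) on the log2 scale. The measured genes next to it by start coordinate, Prkg1 and A1cf, gave -0.014 and 0.0025 in EtOH and 0.010 and 0.052 in atRA. Gene order here goes by start coordinate alone, so that gene bodies may overlap.

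The other large exceptions lay together. Going along the chromosome, Cnnm1, Got1, Nkx2-3, Slc25a28, BC037704, Entpd7 and Cox15 are 7 consecutive measured genes, and 6 of them were higher in RARaKO cells in both treatments. This series was singled out after its values were seen. Its 19 probe sets had a median difference of 0.51 in EtOH and 0.48 in atRA, and they made up 10 of the chromosome's 18 probe sets above 0.5 in EtOH and 9 of 20 in atRA. They also gave 11 of the 13 members called higher in EtOH and 10 of the 13 in atRA. The median level of the 19, minus that of the other autosomes, was 0.13 to 0.33 on the 6 RARaKO arrays and -0.22 to -0.15 on the 6 WT arrays.

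Got1 encodes the cytosolic aspartate aminotransferase of the malate-aspartate shuttle. Its centred level was -0.18, -0.20 and -0.23 on the WT EtOH arrays and 0.30, 0.29 and 0.34 on the RARaKO EtOH arrays. In atRA it was -0.26, -0.37 and -0.33 against 0.37, 0.18 and 0.32. The difference was 0.51 in EtOH and 0.61 in atRA (SE 0.063), with every RARaKO array above every WT array.

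Slc25a28 encodes mitoferrin 2, which carries iron into mitochondria. WT cells gave -0.44, -0.37 and -0.42 in EtOH and -0.53, -0.25 and -0.48 in atRA. RARaKO cells gave 0.34, 0.41 and 0.35 in EtOH and 0.38, 0.29 and 0.25 in atRA. The difference was 0.78 and 0.73 (SE 0.076), again without overlap.

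Cox15 encodes the enzyme that makes heme A for cytochrome c oxidase. Its 4 probe sets were averaged to -0.29, -0.30 and -0.34 on the WT EtOH arrays and 0.46, 0.38 and 0.40 on the RARaKO EtOH arrays. In atRA they gave -0.26, -0.48 and -0.22 against 0.25, 0.43 and 0.39. All 4 probe sets were higher, by 0.64 to 0.84 in EtOH and 0.50 to 0.75 in atRA.

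Entpd7, between them, encodes an intracellular nucleoside phosphatase. Its 5 probe sets averaged 0.48 higher in both treatments, with WT arrays at -0.33 to -0.16 in EtOH and -0.35 to -0.21 in atRA and RARaKO arrays at 0.21 to 0.27 and 0.16 to 0.28. The probe sets did not all do the same: 3 gave differences of 0.52, 0.73 and 1.09 in EtOH, and the other two -0.067 and 0.15. BC037704, an uncharacterised transcript, was higher by 0.42 and 0.33 on the mean of 2 probe sets, and its arrays did not overlap. Cnnm1, of the cyclin M family of magnesium transport proteins, averaged 0.24 and 0.41 higher. Its arrays overlapped in EtOH, at -0.15 to -0.056 in WT and -0.077 to 0.45 in RARaKO cells. The Cnnm1 probe sets disagreed, with 0.60, 0.33 and -0.21 in EtOH and 0.81, 0.28 and 0.14 in atRA. Nkx2-3, a homeobox gene below the highest expression class, was the member of the series that was not higher, with -0.050 and -0.040.

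The measured genes directly next to the series did not share its rise. Hps1, the gene before Cnnm1, gave 0.0084 in EtOH and 0.021 in atRA. A few measured genes earlier, Crtac1, taken up again in the closing section, was also higher. Its called probe set gave 0.26 in EtOH and 0.44 in atRA, with the call in atRA only. Cutc, a copper homeostasis gene that starts 22 bases from Cox15 as shown above, gave -0.16 in EtOH and -0.22 in atRA. Its arrays gave 0.24, 0.0012 and 0.12 in WT against 0.0065, -0.13 and -0.0059 in RARaKO cells in EtOH. In atRA they gave 0.17, -0.0012 and 0.073 against -0.14, -0.19 and -0.087, without overlap. Abcc2 and Dnmbp, which follow, gave 0.10 each in EtOH and 0.086 and 0.041 in atRA. RefSeq places 12 genes from Cnnm1 to Cox15, 6 of them protein coding. Leaving the series out moved the chromosome's median to -0.055 in EtOH and -0.054 in atRA relative to the other autosomes, from -0.053 and -0.052.

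**Figure D5:**
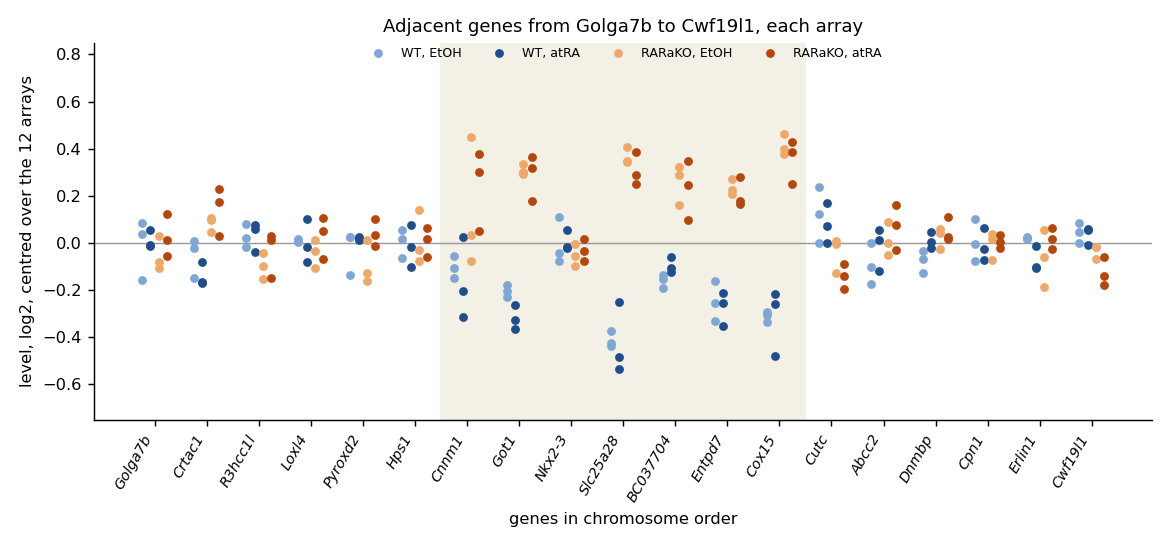
Centred log2 level of 19 adjacent genes in chromosome order, from Golga7b to Cwf19l1, on each of the 12 arrays (points, coloured by group); the shaded genes run from Cnnm1 to Cox15. Got1, Slc25a28, BC037704, Entpd7 and Cox15 show all RARaKO points above all WT points, while Hps1 on the left does not and Cutc on the right has its RARaKO points lower.

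Lipa, the lysosomal acid lipase, was also higher without overlap in both treatments, by 0.44 in EtOH and 0.33 in atRA. All 3 of its probe sets were up in EtOH, by 0.35 to 0.57. Eif3a, the largest subunit of the translation initiation factor eIF3, averaged 0.39 and 0.40, but its 4 probe sets ran from -0.0013 to 1.06 in EtOH. The one at 1.06 was also the most variable between arrays, from -0.92 to -0.54 in WT and 0.088 to 0.51 in RARaKO cells in EtOH and from -0.68 to -0.020 and 0.020 to 1.54 in atRA. Malat1, a nuclear long noncoding RNA, behaved likewise over its 7 probe sets, which gave -0.40 to 0.84 in EtOH and -0.14 to 1.32 in atRA. On its most extreme probe set the RARaKO atRA arrays alone ran from -0.10 to 2.38. Malat1 was named after its values were seen, and no direction is given for it.

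Among the 84 genes that were lower without overlap in both treatments, the 8 with the lowest mean difference were scattered and of different kinds. Lpxn (-0.59 in EtOH, -0.34 in atRA) and Ms4a4d (-0.46 and -0.53) were also low, but their genotypes overlapped in EtOH and in atRA respectively. Pga5, a pepsinogen gene, gave -0.68 in EtOH and -0.72 in atRA on its 1 probe set. Its WT arrays were uneven, at 0.61, 0.048 and 0.71 in EtOH and 0.54, 0.037 and 0.75 in atRA, where the RARaKO arrays gave -0.29, -0.30 and -0.085 and then -0.26, -0.56 and -0.037. Set 3 was thus low in WT cells, and the genotypes still did not overlap.

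Fam111a, a protease that acts at replication forks, was steadier. WT cells gave 0.32, 0.27 and 0.33 in EtOH and 0.23, 0.065 and 0.26 in atRA. RARaKO cells gave -0.17, -0.065 and -0.39 in EtOH and -0.44, -0.23 and -0.47 in atRA. The differences were -0.52 and -0.57 (SE 0.093). Tm7sf2, a sterol reductase of cholesterol synthesis, gave -0.52 and -0.57 with a larger error (SE 0.19), since 1 RARaKO atRA array read -1.002 and the others -0.38 and -0.13.

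Hspa12a, an atypical member of the Hsp70 family, gave -0.36 in EtOH and -0.38 in atRA on the mean of 3 probe sets, which ranged from -0.54 to -0.12 in EtOH. Tmem179b, a membrane protein, gave -0.29 and -0.42, and its 3 probe sets were all lower, at -0.37 to -0.24 in EtOH. Gna14, a G protein alpha subunit, gave -0.43 and -0.33, Fgfbp3, a carrier of fibroblast growth factors, -0.31 and -0.41, and Ms4a6d -0.35 and -0.36. Of the 8 genes, 3 (Pga5, Fam111a and Tmem179b) were in the highest expression class.

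Typical genes looked far less dramatic, as the gene nearest the middle of each stretch shows. Ssh3, a phosphatase of cofilin, gave -0.10 and -0.096 in the first stretch, with overlapping arrays from -0.11 to 0.21 in WT and -0.22 to 0.061 in RARaKO cells in EtOH. Dagla, Pum3 and Cyp2c68 stood at -0.060, -0.046 and -0.017 in EtOH and 0.0059, -0.017 and -0.017 in atRA. Rrp12, of ribosome assembly, gave -0.0092 and -0.053, and Smndc1, of splicing, -0.042 and -0.073. The first measured gene, Ighmbp2, a helicase, gave 0.0032 and 0.026, and the last, Csf2ra, a cytokine receptor chain, -0.085 and -0.15. The arrays of all these genes overlapped between genotypes in both treatments.

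Of the 273 genes with several probe sets, 126 had all of them lower in EtOH, 27 all higher and 120 mixed signs. In atRA the counts were 115, 37 and 121. The 129 members whose probe sets carry an _s or _x suffix, marks of possible cross-hybridisation, shifted by -0.045 and -0.037, and the remaining 944 by -0.054 and -0.053.

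The members were next grouped by function, using lists drawn up with earlier results of these data known. The background is the median gene of chromosome 19, -0.066 in EtOH and -0.053 in atRA, and of the other autosomes, -0.014 and -0.0017. Counts below are of genes with a value under 0, whatever its size. Of all 553 member genes, 74.5% were under 0 in EtOH and 65.1% in atRA, against 55.6% and 50.6% on the other autosomes. A count near the members' own share is not read as a property of its list. The lists were not matched for expression class or for place along the chromosome.

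Cytoskeleton and membrane traffic had medians of -0.15 in EtOH and -0.17 in atRA, with 18 and 17 of its 22 measured genes lower. These were the lowest medians of the lists but for the 2 measured genes of retinoid handling in atRA (-0.18). Of the 22 genes, 20 were in the highest expression class, and many lay in the first stretch, where the lowering was deepest. The rank is therefore not read as a property of the list. Cfl1, the actin-severing cofilin, was among those named for varying least between arrays of a group, and differed by -0.11 in EtOH and -0.18 in atRA. WT cells gave 0.082, 0.045 and 0.070 in EtOH and 0.011, 0.12 and 0.13 in atRA. RARaKO cells gave -0.060, -0.051 and -0.022 and then -0.070, -0.20 and -0.011. Rtn3, which shapes the endoplasmic reticulum, gave -0.20 in each treatment without overlap. Stx5a, of Golgi vesicle fusion, gave -0.15 and -0.24, while Osbp, a sterol carrier, gave -0.044 and 0.0049.

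DNA replication, repair and mitosis had 16 of 18 genes lower in EtOH and 14 in atRA, with medians of -0.12 and -0.11. Banf1, which binds DNA at the reforming nuclear envelope, gave -0.20 and -0.18. Ddb1, of damage recognition, gave -0.17 and -0.12, Cdca5, the cohesin protector sororin, -0.11 and -0.10, and Fen1, the flap nuclease, -0.070 and -0.059. Smc3, a cohesin subunit, gave -0.12 and -0.089. Kif11, the mitotic spindle kinesin, stood at -0.0080 and 0.080.

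Translation had 11 and 12 of 13 genes lower, with medians of -0.10 and -0.11. Trmt112, a partner of RNA and protein methyltransferases, gave -0.14 and -0.11, Mrpl49 and Mrpl16 of the mitochondrial ribosome -0.082 and -0.064 in EtOH, and the ribosomal protein gene Fau -0.027. Eif3a, above, was higher in both treatments only as an average of probe sets that differed widely. Mrpl43, of the mitochondrial ribosome, gave 0.035 and -0.064. Signalling genes were lower in 15 and 14 of 18, with medians of -0.11 and -0.077. Among them the phosphatase genes Ppp2r5b and Ppp1ca gave -0.20 and -0.070 in EtOH, the kinase Map3k11 -0.13, and Frat2, of the Wnt pathway, -0.27.

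RNA polymerase, splicing and RNA processing was lower in 20 and 17 of 27 genes, with medians of -0.061 and -0.053. Hnrnpul2, an RNA-binding protein, was the lowest of the list in EtOH. Its arrays gave 0.29, 0.19 and 0.22 in WT against -0.040, -0.10 and -0.11 in RARaKO cells in EtOH, and 0.20, 0.040 and 0.16 against -0.094, -0.16 and -0.13 in atRA, without overlap. Noc3l gave -0.096 and -0.090 and Pdcd11 -0.092 and 0.013. The same list held Cstf2t at the other end.

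Mitochondria and metabolism was lower in 16 of 23 genes in EtOH and 19 in atRA, with medians of -0.061 and -0.096, although it holds Got1 and Cox15, both described above. Pgam1, of glycolysis, gave -0.083 and -0.095 and Atp5md, of the ATP synthase, -0.085 and -0.12. Fth1, the ferritin heavy chain, gave -0.095 and -0.099. Chromatin and transcription regulators were lower in 13 and 14 of 22, with medians of -0.022 and -0.052. Mta2, of the NuRD complex, gave 0.23, 0.15 and 0.067 in WT and -0.062, -0.024 and -0.10 in RARaKO cells in EtOH, a difference of -0.21 that was -0.25 in atRA. Rela, the p65 subunit of NF-kappaB, gave -0.15 and -0.22, and Kat5, an acetyltransferase, -0.090 and -0.23. Men1, menin, gave -0.046 and -0.074.

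The lists of genes used in few tissues lay mostly below the highest expression class. The 49 measured tissue-restricted genes, 3 of them in the highest expression class, had medians of -0.038 in EtOH and -0.0033 in atRA, with 33 and 25 lower. The 17 embryonic patterning factors had medians of -0.050 and 0.00063, with 11 and 8 lower. The 6 germ cell genes had medians of -0.045 and -0.046, with 5 and 3 lower. Of the 2 retinoid handling genes measured, Rbp4, the plasma retinol carrier, gave -0.066 and -0.037, and Aldh1a1, which makes retinoic acid, -0.052 and -0.32.

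The responses to atRA were not used to choose the chromosome and can be tested. The chromosome 19 members as a whole did not stand apart in them. The 7 genes left out by the rule are not among these members, but are in the shares over all 37600 probe sets. Their own responses to atRA were not read here. The counts thus hold for the members alone and not for the whole chromosome. The median response, atRA minus EtOH on the log2 scale, was -0.012 in WT cells on chromosome 19 and -0.012 on the other autosomes, and in RARaKO cells -0.012 and -0.010. In WT cells 7 members rose and 0 fell (limma, adjusted p under 0.05), 0.652% of the members, against 0.569% of all 37600 (0.484% up, 0.0851% down). In RARaKO cells 4 rose and 0 fell, 0.373% of the members, against 0.263% (0.215% up, 0.0479% down).

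Ltbp3, which tethers latent TGF-beta to the matrix, rose on 3 of its 4 probe sets in both genotypes. On the first, WT arrays went from -0.41, -0.44 and -0.35 in EtOH to 0.37, 0.45 and 0.58 in atRA, and RARaKO arrays from -0.43, -0.46 and -0.27 to 0.30, 0.27 and 0.63. The responses were 0.87 ± 0.097 (SE, limma adjusted p = 0.00076) and 0.78 ± 0.097 (limma adjusted p = 0.0042). The other two called probe sets gave 0.98 and 0.93 in WT and 0.82 and 0.77 in RARaKO cells, and the one not called gave 0.46 and 0.44. In WT cells the 3 called probe sets kept their calls under every alternative that tested them, leaving out any of the 12 arrays included. The RARaKO minus WT differences of the 4 were 0.017 to 0.066 in EtOH and -0.11 to 0.037 in atRA.

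Gfra1, the co-receptor of the growth factor GDNF, rose in WT cells on 2 of its 3 probe sets, by 0.99 ± 0.17 and 0.59 ± 0.10 (limma adjusted p = 0.018 each). In RARaKO cells the first rose by 0.97 (limma adjusted p = 0.039) and the second gave 0.32 (limma adjusted p = 0.37). Sipa1, which turns off the small GTPase Rap1, rose by 0.52 ± 0.10 in WT cells (limma adjusted p = 0.043) and gave 0.31 in RARaKO cells (limma adjusted p = 0.41). Myrf, the myelin regulatory factor, rose by 0.39 ± 0.071 in WT cells (limma adjusted p = 0.029) and gave 0.33 in RARaKO cells (limma adjusted p = 0.11). Except for Ltbp3, each of these WT calls was lost without at least 1 single array. Those of Myrf and of the first Gfra1 probe set were lost on leaving out any of the 6 WT arrays, and Sipa1 kept its call in 6 of 16 alternatives. The RARaKO calls were kept in 16 of 17, 6 of 16 and 15 of 17 alternatives for the 3 Ltbp3 probe sets and in 7 of 17 for Gfra1. None of the RARaKO calls held when only the 6 RARaKO arrays entered the fit (limma adjusted p = 0.095 for the first Ltbp3 probe set). All 7 probe sets had every atRA array above every EtOH array in both genotypes. Over the members, 62 (5.78%) were higher without overlap in WT cells, against 6.22% of all probe sets, and 68 (6.34%) lower, against 7.4%. In RARaKO cells 63 (5.87%) were higher, against 7.31%, and 49 (4.57%) lower, against 5.4%.

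No member's response differed between the genotypes by limma. The count was 0 at an adjusted p of 0.05, as it was over all probe sets (0.0%), and 18 members (1.68%) had an unadjusted p under 0.05, compared with 2.69% on the other autosomes. The median of this difference over the members was -0.0012, against 0.0021 elsewhere. The single probe sets of Cstf2t, Got1 and Slc25a28, high in RARaKO cells throughout, had responses of -0.0084, -0.12 and -0.0099 in WT cells and of -0.098, -0.022 and -0.059 in RARaKO cells, none of them called.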

How the data were processed

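RNA of 12 F9 samples was hybridised to Affymetrix Mouse 430 2.0 arrays, 3 in each of 4 groups. The deposited values had been made with GCRMA, per the submitters' processing notes, with no version given. The deposited values, read as log2 although no base is stated, are centred: the median of a probe set's 12 values is 0. Arrays give no counting depth, and their number limits the precision. Probe sets were named from the platform table and placed on GRCm38 RefSeq genes by gene identifier (30345) or symbol (104), 39 stayed unplaced, and of 37600 probe sets 30488 had 1 symbol, 784 several and 6328 none. No build is named for the array file, so RefSeq served for names and gene order, and the printed sequences are RefSeq's own.

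The members and lists were chosen with earlier results of these data known. A probe set's difference is that of its group means, a gene's the mean of its probe sets. The expression class was recovered from the step of the values and was right for 98.1% of 20000 simulated probe sets. Standard errors and adjusted p-values are from limma 3.58.1 (R 4.3.3; empirical Bayes moderation of a linear model of all 12 arrays with 1 mean per group, 8 residual degrees of freedom, Benjamini-Hochberg over 37600 probe sets, called under 0.05). p-values measure only the spread between these arrays. Tested on simulated data for the WT atRA response over 37600 probe sets, the fit recovered 98 of 100 changes of 1 and 73 of 100 of -0.5, with 10 false calls.

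Genes were named by rule: the 8 highest and 8 lowest among those without overlap in both treatments, the gene nearest the median of each stretch, the first and last gene, in each list up to 4 genes that varied least around their group means, all called atRA responses, and Cstf2t, Men1, Fth1, Kif11, Smc3, Eif3a, Rela and Kat5. Others were named after their values were seen: Cnnm1, Nkx2-3, Hps1, Cutc, Abcc2, Dnmbp, Prkg1, A1cf, Malat1, Lpxn, Mrpl43, Ms4a4d and those of the closing section.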

Additional observations from a re-analysis of the deposited data

Results flagged for a closer look

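Unc93b1, a chaperone that brings Toll-like receptors to endosomes, was the 1 gene of the 553 whose genotypes parted in opposite ways in the 2 treatments. The same count was not made over other genes, so this 1 is not read as unusual. Its single probe set gave -0.15 in EtOH, with all RARaKO arrays (-0.16 to -0.0058) below all WT arrays (0.013 to 0.12), and 0.092 in atRA, with all RARaKO arrays (0.0058 to 0.039) above all WT arrays (-0.12 to -0.021). The response to atRA was -0.13 in WT and 0.10 in RARaKO cells. The difference of the responses was 0.24 ± 0.088 (SE), with an unadjusted p of 0.018 and an adjusted p of 1.00 by limma, so it did not pass.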

How the results depend on the processing

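The chromosome's median differences (-0.053 in EtOH, -0.052 in atRA, relative to the other autosomes) and shares of lower probe sets (69.4%, 63.2%) kept their direction under every alternative. They were larger in the highest expression class (-0.085, -0.084; 76.9%, 78.7%) and smaller without the first stretch, chosen after seeing the data (-0.036, -0.028; 65.0%, 57.3%). With 1 value per gene the EtOH share was 74.5%. Leaving out single arrays gave -0.058 to -0.048 and -0.058 to -0.047, and 67.1% to 70.4% and 62.0% to 64.2%. Counts of called members moved far more. Same-numbered arrays deviated together in 15 of 18 pairs (r over 0.1, lowest 0.019, highest 0.50), and all 12 arrays correlated best with their own set, a hint from the data and not the design. With the set number as a replicate block, the genotype calls went from 37 to 74 in EtOH and from 48 to 100 in atRA, the median differences being -0.056 and -0.053, and the atRA calls from 7 to 9 in WT and from 4 to 5 in RARaKO cells. Array weights gave 77 and 81 genotype calls, the highest class alone 53 and 74, and arrays of the comparison alone 36 and 18 genotype calls and 5 and 0 atRA calls. Without single arrays the genotype calls ran from 15 (without WT EtOH set 4) to 46 in EtOH and from 17 (without WT atRA set 4) to 47 in atRA. In EtOH they were also 19, 19 and 22 without RARaKO EtOH sets 2, 3 and 4 and 21 without WT EtOH set 2, and in atRA 28 without WT atRA set 2. The atRA calls ran from 3 to 8 in WT cells (3 or 4 without any 1 WT array) and from 1 (without RARaKO EtOH set 3) to 4 in RARaKO cells, where they were 2 without 6 other arrays, RARaKO EtOH set 2, RARaKO atRA sets 3 and 4, WT EtOH set 3 and WT atRA sets 3 and 4. The difference of the responses gave 0 calls throughout. The causes were not tested. Signal over background is not known for these centred values.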

Other observations

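Beyond the 16 genes named as highest and lowest, the members called in both genotype comparisons by limma included several lowered genes. Some of these were lowered on part of their probe sets only. They were picked after their values were seen and are descriptions. Asrgl1, an asparaginase-like enzyme, was low on all 4 of its probe sets, which gave -0.39 to -0.25 in EtOH and averaged -0.30 and, in atRA, -0.39. Cdc42bpg, a kinase bound by the small GTPase Cdc42, gave -0.32 and -0.30 on its 1 probe set. Atl3, an atlastin that fuses tubules of the endoplasmic reticulum, gave -0.46 and -0.27 on the called pair of its 5 probe sets in EtOH, while another stood at 0.034. Hells, a chromatin remodeller needed for DNA methylation, gave -0.45 on the called probe set and averaged -0.17 over 3. Btaf1, which removes the TATA-binding protein from DNA, gave -0.48 and averaged -0.22, and Pdzd8, of membrane contact sites, gave -0.49 and averaged -0.15 over 4. For these last 4 genes the value therefore depends on the probe set.

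Higher without overlap in both treatments, besides the genes already described, were Zfp518a, a zinc finger gene (0.30 in EtOH and 0.25 in atRA), Rcor2, a partner of the demethylase LSD1 (0.23 and 0.32), Crtac1, a matrix protein gene (0.14 and 0.28), and Rcl1, of ribosomal RNA processing (0.12 and 0.087). Within the Ms4a cluster, 12 of whose genes were measured, Ms4a4d and its neighbour Ms4a6d gave -0.46 and -0.35 in EtOH and -0.53 and -0.36 in atRA, while the remaining 10 ran from -0.18 to 0.23 in EtOH and from -0.12 to 0.15 in atRA.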
